A study of Mus musculus with 8 samples.

Results

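The genes of the major histocompatibility complex (MHC) and the complement genes C3 and C4b were followed in whole mouse brain. They are 9 of the 24343 genes in the deposited bulk RNA-seq table, chosen by symbol alone: B2m, H2-K1 and H2-D1 of MHC class I, H2-Aa, H2-Ab1, H2-Eb1 and Cd74 of class II, and C3 and C4b of complement. All libraries came from C57BL/6NCrl mice aged 56–62 days, with no genetic change and no treatment named in the labels. Mouse 1 and mouse 2 gave 3 libraries each and mouse 3 gave 2, so that 8 libraries stand for 3 animals of a single condition. The sex of each animal and the meaning of the library number are not given in the sources used here, and the libraries of 1 mouse count as 1 animal.

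MHC class I molecules carry peptides made inside the cell to the surface, where CD8 T cells and natural killer cells read them. The heavy chain (H2-K1 or H2-D1) is held in place by beta-2 microglobulin, the product of B2m. Class II molecules are pairs of an alpha and a beta chain that present peptides taken up from outside, mostly on dendritic cells, B cells and macrophages, and Cd74 encodes the invariant chain that guides them through the cell. C4 and C3 are cleaved in turn after C1q has bound its target, and in the brain C1q and C3 are known for marking synapses that microglia take up.

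Of the 9 genes, 7 lie on chromosome 17. On mm10, the build named in the submitters' processing notes, H2-K1 was placed at chr17:33996012-34000333 on the minus strand and H2-D1 at chr17:35263094-35267497 on the plus strand. Between them lay H2-Ab1 (chr17:34263227-34269418, plus), H2-Aa (chr17:34282751-34287771, minus), H2-Eb1 (chr17:34305867-34316674, plus) and C4b (chr17:34728381-34743897, minus). C3 was placed at chr17:57203967-57228136 on the minus strand. The remaining genes were B2m at chr2:122147687-122153082 and Cd74 at chr18:60803849-60812652, both on the plus strand. Each of the 9 loci overlapped a protein-coding gene of the same name in the GENCODE annotation.

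RefSeq promoter windows on GRCm38.p6, 250 bases before to 50 bases after the start of the gene, were read for 6 of the 9 genes. Cd74 was left out of this search, and no window was matched for H2-Ab1 and C4b. The 5 short motifs searched on both strands are known from MHC promoters: CCAAT, the Y box CTGATTGG, TGACG (a portion of the X2 box), GAAANNGAA (core of the interferon regulatory factor element) and GGGNNTTCC (core of the kappa B site). The 250 bases before the start are shown for the 5 MHC genes with a window, 5′ to 3′ along the gene, with every match in capitals. The motifs were picked because MHC promoters are known to carry them, so matches in these genes are not an independent finding.

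B2m (chr2:122147437-122147686, plus): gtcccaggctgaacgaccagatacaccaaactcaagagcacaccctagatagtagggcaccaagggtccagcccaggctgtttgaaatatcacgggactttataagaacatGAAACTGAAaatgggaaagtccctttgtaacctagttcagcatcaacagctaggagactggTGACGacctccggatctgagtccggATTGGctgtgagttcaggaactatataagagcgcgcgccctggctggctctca
H2-K1 (chr17:34000334-34000583, minus): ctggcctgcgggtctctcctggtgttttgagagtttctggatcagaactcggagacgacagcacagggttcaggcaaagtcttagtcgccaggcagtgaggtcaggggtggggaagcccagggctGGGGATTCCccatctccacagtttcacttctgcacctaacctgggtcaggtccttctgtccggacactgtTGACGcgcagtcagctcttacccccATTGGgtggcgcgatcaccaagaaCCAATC
H2-D1 (chr17:35262844-35263093, plus): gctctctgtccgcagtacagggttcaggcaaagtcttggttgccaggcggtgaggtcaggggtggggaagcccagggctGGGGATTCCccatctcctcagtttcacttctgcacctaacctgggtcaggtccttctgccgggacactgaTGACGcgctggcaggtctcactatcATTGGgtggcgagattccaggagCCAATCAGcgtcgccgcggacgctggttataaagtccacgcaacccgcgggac
H2-Aa (chr17:34287824-34288073, minus): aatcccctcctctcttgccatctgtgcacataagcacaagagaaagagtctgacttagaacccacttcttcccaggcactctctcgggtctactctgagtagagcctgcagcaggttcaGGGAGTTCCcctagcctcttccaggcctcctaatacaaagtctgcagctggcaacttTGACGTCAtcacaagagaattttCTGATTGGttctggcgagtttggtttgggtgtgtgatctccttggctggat
H2-Eb1 (chr17:34305617-34305866, plus): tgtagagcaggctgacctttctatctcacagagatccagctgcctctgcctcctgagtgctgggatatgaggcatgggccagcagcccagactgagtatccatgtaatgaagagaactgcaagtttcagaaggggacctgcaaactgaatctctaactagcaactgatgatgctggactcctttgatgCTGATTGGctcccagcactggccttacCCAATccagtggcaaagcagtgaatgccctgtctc

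The Y box letters, or their reverse complement CCAATCAG, stood in the windows of H2-K1, H2-D1, H2-Aa and H2-Eb1, and in 4.1% of all 32851 windows. In H2-K1 this match spans the start of the deposited transcript, so that its last 2 bases are not shown. For H2-Aa the RefSeq start lies upstream of that of the deposited transcript. CCAAT, which the Y box contains, was found in all 5 MHC windows and in 37.4% of all windows. TGACG stood in the windows of B2m, H2-K1, H2-D1 and H2-Aa against 20.8% of all windows. The kappa B letters were found in H2-K1, H2-D1 and H2-Aa against 5.82% of all windows, and H2-K1 and H2-D1 carried the same GGGGATTCC. GAAANNGAA was found in B2m, as GAAACTGAA, and in 8.56% of all windows. The window of C3 held none of the 5 motifs. A match is a run of letters and not a measured binding site.

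Levels were read in FPKM, the number of sequenced fragments scaled to transcript length and library size, so that they can be set side by side between genes. A gene's transcripts were summed, averaged within each mouse and then over the 3 mice, and each SD is between mice (n = 3). The class I light chain stood far above the rest. The order was B2m, H2-D1, H2-K1, C4b, Cd74, H2-Aa, H2-Ab1, H2-Eb1 and C3, over a range from 99.4 ± 11.5 FPKM to 0.263 ± 0.0448 FPKM. The 9 genes together made 150 ± 15.9 FPKM, or 0.0432% of all FPKM.

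**Figure D1:**
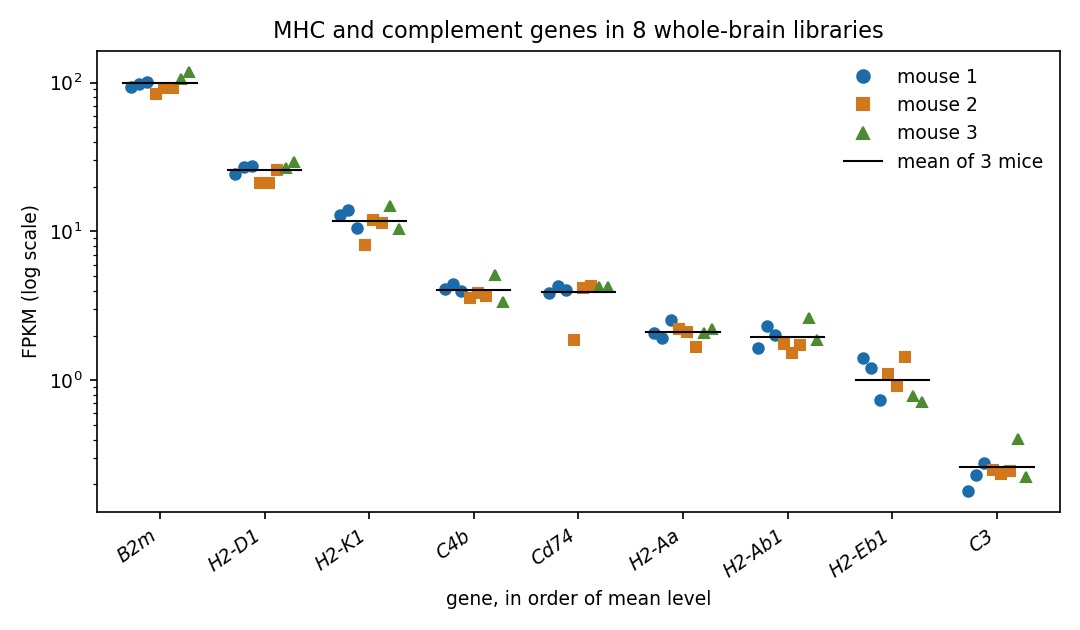
FPKM on a log scale (y axis) of the 9 genes (x axis, in order of mean level) in each of 8 whole-brain libraries, with 1 point a library, marked by mouse, and a line at the mean of the 3 mice. B2m lies near 99.4 FPKM and C3 near 0.263 FPKM, and the point for Cd74 at 1.87 FPKM in mouse 2 stands below the others.

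Among the class I genes, B2m was measured at 93.7, 97.3 and 100.5 FPKM in mouse 1, at 84.1, 91.3 and 92.3 FPKM in mouse 2 and at 105.5 and 118.3 FPKM in mouse 3. Both libraries of mouse 3 were above all others, and 97.7% of the genes in the table had a lower mean. H2-D1, a classical heavy chain, gave 24.4, 26.9 and 27.4 FPKM in mouse 1, 21.2, 21.1 and 26.0 FPKM in mouse 2 and 26.6 and 29.5 FPKM in mouse 3. Its mean was 25.7 ± 2.67 FPKM, and the mice overlapped. The other classical heavy chain, H2-K1, gave 12.8, 13.9 and 10.6 FPKM in mouse 1, 8.16, 11.9 and 11.3 FPKM in mouse 2 and 14.8 and 10.4 FPKM in mouse 3. Its mean was 11.8 ± 1.19 FPKM, and the values of all 3 mice overlapped.

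H2-D1 exceeded H2-K1 by 2.17-fold in the means and in 8 of 8 libraries, with no overlap of their ranges, and B2m exceeded H2-D1 by 3.87-fold, likewise in 8 of 8 libraries. The sum of the heavy chains was 37.5 ± 3.83 FPKM. Against B2m, its partner, this sum had a ratio of 0.378 ± 0.0177 (SD, n = 3 mice), with libraries between 0.337 and 0.419, and its SD was a smaller part of the mean than that of each of the 3 genes.

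Class I genes have near copies, and how reads that fit several of them were counted is not given in the sources used here. A transcript named H2-L lies inside the H2-D1 locus (chr17:35263123-35266730), and its FPKM was 0.637 in mouse 1 library 1, 1.196 in mouse 3 library 1 and near 0 in the other libraries. H2-K2, a copy of H2-K1, stood at 0.953 FPKM, and the non-classical genes H2-Q4, H2-Q6 and H2-Q7 at 5.13, 0.308 and 0.423 FPKM. The levels of H2-D1 and H2-K1 are therefore uncertain by what these copies share with them, which was not tested.

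The class II genes were all low. H2-Aa, the alpha chain of the I-A molecule, gave 2.07, 1.94 and 2.54 FPKM in mouse 1, 2.23, 2.10 and 1.68 FPKM in mouse 2 and 2.09 and 2.21 FPKM in mouse 3. H2-Ab1, its beta chain, gave 1.64, 2.32 and 2.03 FPKM in mouse 1, 1.75, 1.53 and 1.74 FPKM in mouse 2 and 2.63 and 1.85 FPKM in mouse 3. The chains of this pair, at 2.11 ± 0.0945 and 1.97 ± 0.284 FPKM, were not told apart: H2-Aa was the higher in 5 of 8 libraries and their ranges overlapped.

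H2-Eb1, the beta chain of the I-E molecule, gave 1.41, 1.22 and 0.741 FPKM in mouse 1, 1.10, 0.915 and 1.44 FPKM in mouse 2 and 0.783 and 0.717 FPKM in mouse 3. At 1.01 ± 0.224 FPKM it was lower than H2-Ab1 in 8 of 8 libraries, by 1.95-fold in the means, with no overlap of the ranges. Mice of the b haplotype, such as C57BL/6, carry an inactive copy of the I-E alpha chain gene and so make no I-E molecule. That copy, listed as H2-Ea-ps, stood at 0 FPKM in 8 of 8 libraries, and H2-Eb2 at 0.0149 FPKM with 4 libraries at 0. Beta-chain RNA of I-E was thus measured where no alpha-chain RNA was listed.

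Cd74 was the highest of the class II genes, with 3.86, 4.29 and 4.07 FPKM in mouse 1, 1.87, 4.19 and 4.33 FPKM in mouse 2 and 4.21 and 4.26 FPKM in mouse 3. Library 1 of mouse 2, the shallowest of the 8, was the only one below 3.86 FPKM. The mean was 3.92 ± 0.407 FPKM, 2.31 ± 0.161 times the mean of the 3 class II chains, with libraries between 1.10 and 2.77. Without library 1 of mouse 2 this ratio was 2.50.

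Cd74 was the only gene of the 9 with more than 1 deposited transcript. NM_010545, of 1223 bases and 8 exons, encodes the shorter invariant chain known as p31. NM_001042605, of 1415 bases and 9 exons, adds an exon of 192 bases (chr18:60811294-60811485, exon 7) and encodes the longer chain known as p41, whose added domain inhibits cysteine proteases of the endosome. The shorter transcript stood at 2.92 ± 0.529 FPKM and the longer at 1.01 ± 0.330 FPKM.

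The longer form made 40.3, 32.7 and 28.1% of Cd74 in the libraries of mouse 1, 50.7, 21.1 and 22.9% in mouse 2 and 13.4 and 20.4% in mouse 3. Computed from the mouse means, the shares were 33.5, 27.2 and 16.9%, a mean of 25.9 ± 8.38%. The 2 libraries of mouse 3 gave the lowest shares and library 1 of mouse 2 the highest. The fall of Cd74 in library 1 of mouse 2 lay in the shorter form, at 0.922 FPKM, while the longer form stood there at 0.947 FPKM. Reads were divided between the forms by the authors' estimation, and the longer form rested on the equivalent of 5.62 to 16.8 fragments, so its share is loosely fixed in each library.

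**Figure D2:**
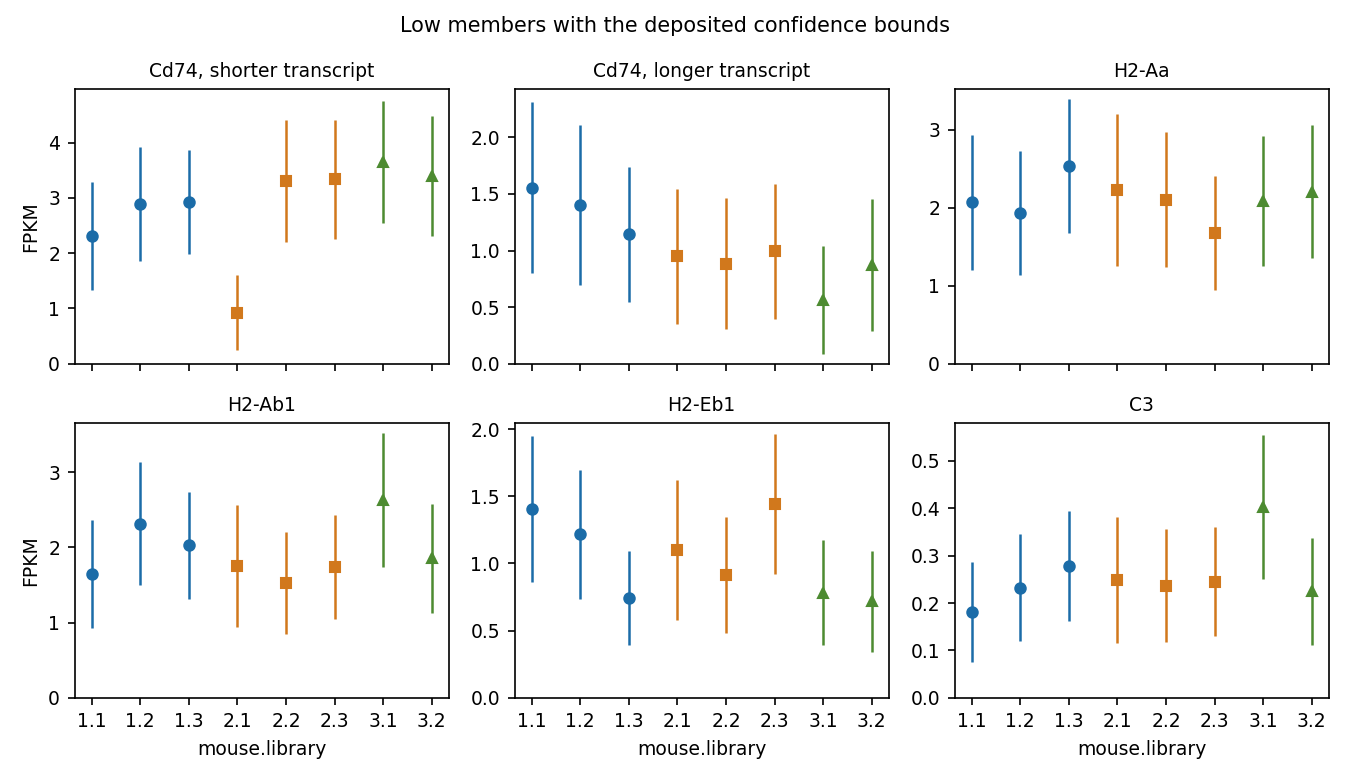
FPKM (y axis, linear from 0) of the Cd74 transcripts, H2-Aa, H2-Ab1, H2-Eb1 and C3 in each library (x axis, mouse and library number, coloured by mouse), with the confidence bounds deposited by the authors as bars. The bounds of the lowest and highest library overlap in every panel except the shorter Cd74 transcript, where mouse 2 library 1 stands at 0.922 FPKM.

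The deposited confidence bounds gave the depth behind each value, as the number of fragments for which counting error alone would give a bound of that width. Per library it came to 573 to 1078 fragments for B2m, 309 to 528 for H2-D1, 207 to 369 for C4b and 131 to 295 for H2-K1. It was 19.0 to 34.7 for H2-Ab1, 21.0 to 34.7 for H2-Aa, 14.7 to 31 for H2-Eb1 and 11.9 to 28.0 for C3. For these 4 genes the bounds of the lowest and the highest library overlapped. Overlap of bounds is not a test, so whether their libraries spread beyond counting error was not decided. For B2m, H2-D1, H2-K1 and C4b those bounds did not overlap.

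The complement members stood far apart. C4b, the source of C4, gave 4.09, 4.45 and 3.98 FPKM in mouse 1, 3.58, 3.87 and 3.68 FPKM in mouse 2 and 5.11 and 3.34 FPKM in mouse 3, so that the libraries of mouse 3 were both the highest and the lowest. C3 gave 0.182, 0.232 and 0.278 FPKM in mouse 1, 0.249, 0.237 and 0.245 FPKM in mouse 2 and 0.403 and 0.225 FPKM in mouse 3. Per length, C4b RNA exceeded C3 RNA by 15.6 ± 2.34-fold (SD, n = 3 mice), with libraries between 12.7 and 22.5, and 8 of 8 libraries had this order.

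C4b at 4.04 ± 0.283 FPKM and Cd74 differed by 1.03-fold in the means and exchanged order between libraries, with C4b the higher in 4 of 8. C4a, the neighbouring copy of C4b known as sex-limited protein, stood at 0.352 ± 0.0492 FPKM, between 0.258 and 0.446 FPKM over the libraries. The division of reads between these copies was not tested.

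The other complement genes were taken from lists. Of 13 initiation genes found, the 3 C1q chains were the highest: C1qa at 29.8 ± 6.78, C1qb at 28.2 ± 9.24 and C1qc at 29.8 ± 6.57 FPKM. The proteases that follow C1q were low, with C1ra at 0.665, C1s1 at 0.417 and C2 at 0.582 FPKM, and Mbl2, a lectin that starts the pathway without C1q, was listed at 0 in every library. Of 10 genes of the alternative and terminal pathway, only Cfp (properdin, which stabilizes the C3-cleaving enzyme) reached 1 FPKM, at 1.97 FPKM. Cfb stood at 0.150 FPKM and C8g at 0.688 FPKM, and Cfd and C9 were listed at 0. A symbol was not found for C1s or C5, while Hc, the mouse gene for C5, stood at 0.0277 FPKM.

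Among the regulators, Clu (clusterin) was at 349.8 FPKM, Sez6l2 at 68.7 FPKM, Vtn (vitronectin) at 35.7 FPKM and Serping1 (the C1 inhibitor) at 4.46 FPKM, while Cfi, the protease that inactivates C3b, was listed at 0. Among the receptors, Itgam and Itgb2, the chains of complement receptor 3, stood at 3.89 and 1.41 FPKM and C3ar1, the receptor for C3a, at 0.492 FPKM.

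**Figure D3:**
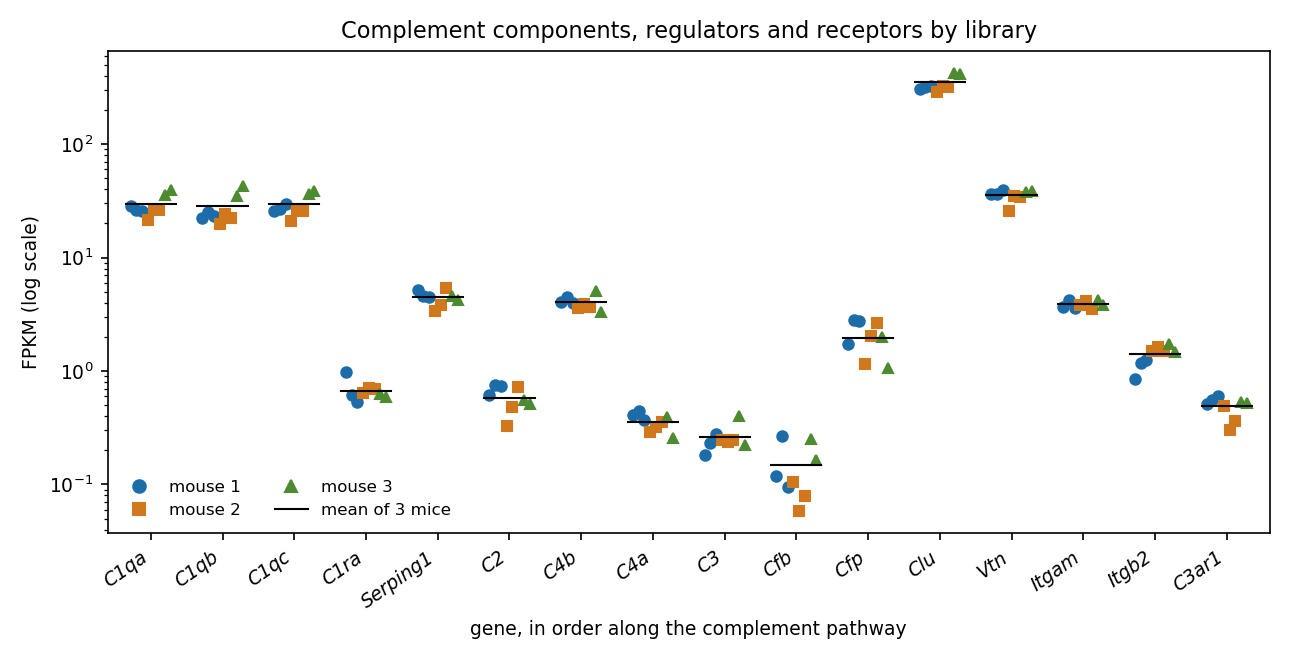
FPKM on a log scale (y axis) of complement components, regulators and receptors (x axis, from C1q to the receptors) in each library, marked by mouse, with a line at the mean of the 3 mice. The C1q chains stand near 29.8 FPKM, C4b near 4.04 FPKM and C3 near 0.263 FPKM, and the triangles of mouse 3 lie above the other points for the C1q chains and Clu.

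The design holds no treatment, so the only comparison between groups is between the 3 individuals. Values of log2(FPKM + 1) in the 8 libraries were entered in a moderated F-test of limma, and p-values were adjusted by Benjamini-Hochberg over all 13001 genes that averaged 1 FPKM or more. These p-values measure the spread between libraries and describe these 3 mice. Differences are given as mouse 3 minus the mean of mice 1 and 2. The F-test takes in any difference among the 3 mice, so its p-value does not test that difference alone. A gene that passed is called higher or lower in mouse 3 by the sign of this difference. Earlier results had shown mouse 3 to stand apart. Transcript length moved with it. Across genes, the Spearman correlation of transcript length with a library's deviation from the gene mean was 0.18 to 0.50 in mice 1 and 2 and -0.36 and -0.57 in mouse 3. RNA of a given gene can be lower in bulk because fewer cells of a type were present or because each held less, and these cannot be told apart.

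Of the 9 genes, 8 reached 1 FPKM and 0 of those 8 passed the limma test, against 25.5% of all genes tested (14.1% higher and 11.3% lower in mouse 3). Scaled as TPM, each library to the same total, 806 genes were higher and 4840 lower in mouse 3, against 1835 and 1475 in FPKM. C3 was below the minimum and was not tested, and H2-Eb1 was just above it. At an unadjusted p under 0.05 limma gave 1 of these genes, B2m, and 5303 of all 13001 genes. B2m was higher in mouse 3 by 0.26 ± 0.08 (SE) on the log2 scale and had an adjusted p of 0.0641 in the limma F-test over the 3 mice. It passed, with an adjusted p of 0.0414, when library 1 of mouse 3 was left out, and its adjusted p was 0.0414 to 0.470 over the 15 alternatives.

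The other 7 genes lay further from the threshold. H2-D1 differed by 0.19 ± 0.10, H2-K1 by 0.13 ± 0.17 and C4b by 0.06 ± 0.12, with limma adjusted p-values of 0.151, 0.468 and 0.607. Cd74 differed by 0.16 ± 0.21, H2-Ab1 by 0.19 ± 0.12 and H2-Aa by 0.03 ± 0.10, with adjusted p-values of 0.541, 0.280 and 0.772. H2-Eb1 alone was lower in mouse 3, by -0.28 ± 0.14, with an adjusted p of 0.291. The median of the 8 was 0.15 beside 0.02 for all genes tested, and their median coefficient of variation between mice was 10.4% beside 12.3%.

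These directions rest on the scaling. In TPM the median of all genes moved to -0.23 and all 8 genes were lower in mouse 3, although 7 of 8 were still above that median, as they were in FPKM. When each library's trend with transcript length was removed, 2 of the 8, H2-D1 and C4b, were higher in mouse 3 and above the median of all genes. B2m, one of the shorter transcripts at 858 bases, went from 0.26 to -0.27, and C4b, the longest of the 9 at 5393 bases, from 0.06 to 0.21.

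**Figure D4:**
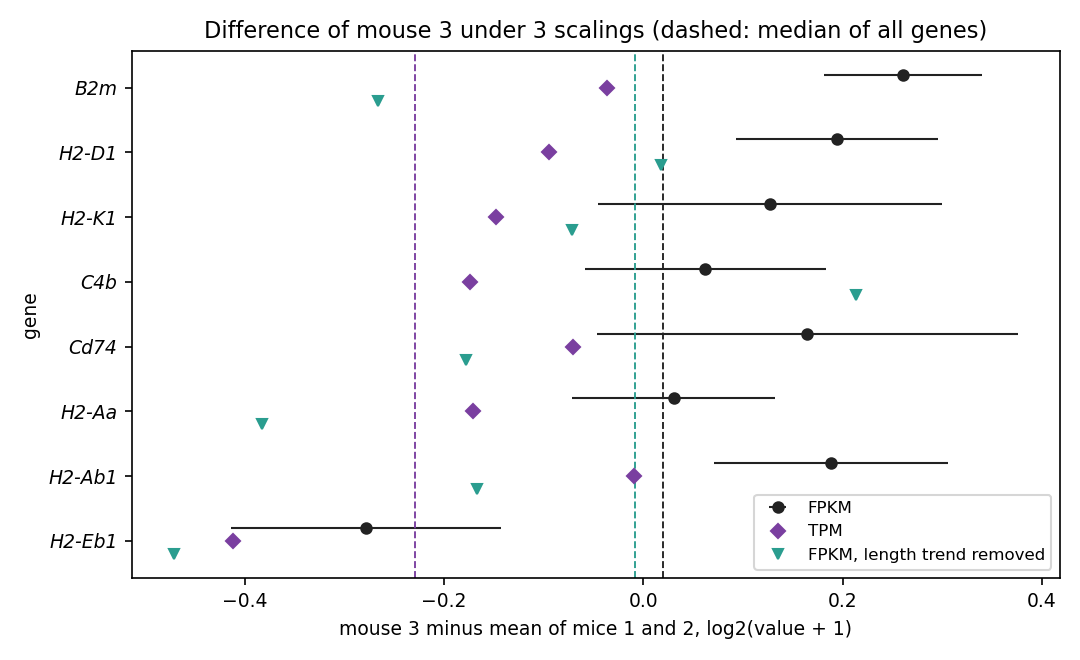
Mouse 3 minus the mean of mice 1 and 2 on the log2(value + 1) scale (x axis) for the 8 genes tested (y axis), in FPKM with the SE as bars, in TPM and with the length trend of each library removed, with dashed lines at the median of all genes in the same colour. B2m sits at 0.26 in FPKM, at -0.04 in TPM and at -0.27 without the length trend, and only H2-Eb1 is below 0 under all 3.

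Other class I and class I-like genes, and genes of peptide loading, were read in the same fit. In it 25.5% of all genes tested passed, a share that stands beside the count of each list below. Of 20 class I and class I-like genes, 8 were tested and 3 passed, all higher in mouse 3. H2-T22 differed by 0.77 ± 0.14 (limma adjusted p = 0.0147) and the neonatal Fc receptor Fcgrt by 0.43 ± 0.11 (adjusted p = 0.0303). H2-M3, which presents formylated peptides, differed by 0.45 ± 0.13 (adjusted p = 0.0463). In TPM the differences of Fcgrt and H2-M3 fell to 0.16 and 0.25 (limma adjusted p = 0.0926 and 0.0730), and without the length trend to 0.26 and 0.19 (0.0864 and 0.280), so that neither passed. H2-T22 passed under both scalings, but not without library 1 or library 2 of mouse 3. H2-T22 shares its locus with H2-T9, so that these are uncertain against each other. H2-T23, at 9.71 FPKM, was among the highest of this list, and H2-T3 and H2-M2 were listed at 0.

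Of 14 peptide-loading genes, 12 were tested and 3 passed, all higher in mouse 3. They were Psme1 (adjusted p = 0.0152 by limma) and Psme2 (0.0170), which form the PA28 proteasome activator, and Psmb10 (0.0172), a subunit of the immunoproteasome. The chaperones Calr, Canx and Pdia3 were the highest, at 154, 94.3 and 66.2 FPKM. Tap1 and Tap2, which carry peptides into the endoplasmic reticulum, stood at 0.957 and 2.51 FPKM, and Nlrc5, the class I transactivator, at 0.0848 FPKM. Without the length trend these 3 did not pass by limma, with differences of -0.02 for Psme1 (adjusted p = 0.863), 0.12 for Psme2 (0.441, from 0.62) and 0.35 for Psmb10 (0.0797, from 0.68). In TPM, Psme1 had 0.15 (0.284) and did not pass.

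Of 16 class II pathway genes found, 7 were tested and 1 passed. This was Ctss, the protease that trims the invariant chain, at 42.2 ± 6.62 FPKM and higher in mouse 3 by 0.37 ± 0.09 (limma adjusted p = 0.0490). The difference of Ctss was 0.07 in TPM (0.751) and 0.08 without the length trend (0.336). Lgmn, another endosomal protease, stood at 57.4 FPKM and Rfxap, part of the complex that binds the X box, at 8.99 FPKM. Ciita, the class II transactivator, was at 0.0498 ± 0.0441 FPKM and at 0 in both libraries of mouse 3, and no library exceeded 0.122 FPKM. The peptide exchanger gene H2-DMa stood at 3.67 FPKM.

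In complement initiation, 4 of 13 genes were tested and 3 passed. C1qb was at 22.1, 25.2 and 23.5 FPKM in mouse 1, at 19.7, 24.4 and 22.3 FPKM in mouse 2 and at 34.8 and 42.9 FPKM in mouse 3. It differed by 0.73 ± 0.11 (limma adjusted p = 0.010), and mice 1 and 2 overlapped each other but not mouse 3. C1qa differed by 0.52 ± 0.10 and C1qc by 0.50 ± 0.11, with adjusted p-values of 0.0193 and 0.0228. With the length trend removed, C1qb had an adjusted p of 0.0284 while C1qa and C1qc had 0.492 and 0.571. In TPM, C1qa and C1qc had 0.0833 and 0.0839 and C1qb 0.00926. Whether C1q differs from C4b in this respect was not tested.

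Of 18 complement regulators, 14 were tested and 4 passed: Clu was higher in mouse 3 (limma adjusted p = 0.0162), and Sez6l (0.0301), Csmd3 (0.0341) and Csmd1 (0.0486), long transcripts of membrane proteins with complement control domains, were lower. In TPM the difference of Clu fell from 0.42 to 0.12 (limma adjusted p = 0.435). Without the length trend that of Csmd3 went from -0.42 to -0.09 (0.534) and that of Csmd1 from -0.57 to -0.22 (0.113). None of the 2 receptor genes and 1 alternative-pathway gene tested passed by limma, where 1 receptor gene, and not Cfp, had an unadjusted p under 0.05. Of 20 interferon-response genes, 19 were tested and 2 passed, Rtp4 higher (0.0437) and Stat2 lower (0.0207) in mouse 3. Rtp4 did not pass in TPM (0.116) or without the length trend (0.363). Ifitm3, Ifi27 and Ifit3 were the highest, at 19.0, 17.8 and 7.42 FPKM. Over the 8 lists 16 genes passed, and without library 2 of mouse 3 there were 0 by limma, with 19 at an unadjusted p under 0.05 beside 28 with all libraries. The 16 were of 67 list genes tested, beside 25.5% of all genes tested. Over the 15 alternatives H2-M3 and Csmd1 lost their calls in 13 each, Ctss and Rtp4 in 12 each and Fcgrt and Csmd3 in 7 each. Stat2 and C1qb lost theirs in 1.

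Markers of the cells that could hold these RNAs were summed beside them. The 8 microglia markers summed to 105 to 114 FPKM in mouse 1, 99.1 to 113 in mouse 2 and 135 to 142 in mouse 3, with 3 of 8 (Aif1, Trem2 and Cx3cr1) higher in mouse 3 by limma. The 6 astrocyte markers summed to 456 to 475, 449 to 485 and 715 to 825 FPKM, and 6 of 6 were higher in mouse 3. Of 6 neuron markers, 3 were lower in mouse 3 (Syt1, Rbfox3 and Gad1). Transcripts of these 3 have 4731, 3007 and 3231 bases, and those of Snap25, Slc17a7 and Tubb3, not called, 2119, 2940 and 1723. The astrocyte markers run from 1661 to 5082 bases. All these marker calls are in FPKM and were not read in TPM or without the length trend. The part of these marker shifts in the values of B2m, C1q or Ctss was not tested.

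Markers of dendritic cells, lymphocytes and border macrophages were low in summed FPKM. The 6 dendritic cell markers summed to 5.78 to 7.55 FPKM, of which Flt3 (2.76 FPKM, lower in mouse 3) and Zbtb46 (3.26 FPKM) made most, while Xcr1, Clec9a and Ccr7 stood at 0.0710, 0.0866 and 0.0421 FPKM. The 8 B and T cell markers summed to 1.81 to 2.77 FPKM, of which Cd4 made 1.59 FPKM, with Cd3e, Cd3d and Cd8a at 0 in 5 libraries each. The 6 markers of border macrophages, among them Mrc1 and Pf4, summed to 3.27 to 5.62 FPKM. Blood (529.6 to 896.6 FPKM), choroid plexus (322 to 565.5), endothelial (57.0 to 115) and meningeal fibroblast markers (30.2 to 33.7) were present in every library. In that order, 1 of 5 (Hbb-bt, higher in mouse 3), 1 of 5 (Kl, lower), 1 of 6 (Ly6c1, higher) and 0 of 6 passed by limma. Of the 6 meningeal markers 1 had an unadjusted p under 0.05. Hbb-bt and Ly6c1 have 630 and 849 bases and Kl 5118. Markers of these lists that did not pass run from 559 (Hba-a1) to 6553 bases (Pdgfra). These calls were likewise read in FPKM alone, and the part of transcript length in them was not tested.

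The genes whose profiles over the 8 libraries came closest to those of Cd74 and C4b were sought among all genes tested, by the mean absolute difference of the deviations from each gene's own mean on log2(FPKM + 1). For Cd74 they were Hn1 (0.0494), Tmem246 (0.0514) and Gprc5c (0.0525), beside a mean absolute deviation of Cd74 itself of 0.186. For C4b the nearest were Mboat1 (0.0412) and Sertad1 (0.0431), beside 0.112 for C4b itself. No class II or complement gene was among those nearest to either, but the search cannot decide whether they vary together. Genes below 1 FPKM, among them C3, were not searched. The class II chains rest on 14.7 to 34.7 fragments a library, where counting error alone can set profiles apart. The profile of Cd74 holds the low value of 1.87 FPKM in library 1 of mouse 2.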

How the data were processed

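Whole-brain RNA of 3 mice was sequenced as 8 mRNA libraries (RNAqueous Micro purification, RNA integrity number above 8, Kapa mRNA HyperPrep, NextSeq500). The authors deposited FPKM with lower and upper confidence bounds for 34535 RefSeq transcripts in each library, together with coverage, a signal of mean read depth per base. The submitters' processing notes name TopHat, Cufflinks and mm10. Versions, strand setting and read length are not given in the sources used here. Coverage multiplied by length came to 1.31 to 2.02 gigabases on transcripts per library. Of the transcript values, 8 had a failed status, and 0 of these belonged to the 9 genes.

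Transcript FPKM were summed per gene (24343 genes) and averaged within mice, then over mice. Differences between mice were tested with limma 3.58.1 in R 4.3.3 on log2(FPKM + 1), which understates the change of low genes, among genes averaging 1 FPKM or more, at an adjusted p threshold of 0.05. The test was checked on simulated data with independent noise. Of 200 genes raised by 1 on the log2 scale in mouse 3, 159 passed, with 2 false calls. The simulation held no trend with transcript length, so it cannot speak to calls made under such a trend. Fragment equivalents were computed as the square of 2 × FPKM over the distance to the upper bound, which assumes bounds of 2 SD. Of 30948 low values 31.2% came out whole within 0.02, so they are approximate and cover counting error only. Loci are printed with the start counted from 1.

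The 9 genes and all lists were chosen with earlier results of these data known. The genes named were the 9 members, C4a, H2-Ea-ps, H2-Q4, H2-Q6 and H2-Q7 as copies, and, from each pathway list, the 3 highest, those at 0 in every library and up to 4 of smallest adjusted p among those that passed. To these were added all cell type markers and the 3 nearest profiles of Cd74 and of C4b. H2-L, H2-K2, H2-T9, H2-Eb2, C1ra, C1s1, C2, Hc, Serping1, Tap1, Tap2, Nlrc5, Ciita and H2-DMa fall outside this rule: they were picked with their values in view. Some genes that the rule or the lists take in are not reported here. The alternatives took another pseudocount, lower minimums, TPM, removal of the trend with length (lowess, span 0.3), the highest transcript, other averages, each library left out and a replicate block. Sequences and starts are from RefSeq (GRCm38.p6), exons from GENCODE.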

Additional observations from a re-analysis of the deposited data

Results flagged for a closer look

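Over the 8 libraries, Dixon's test compares the gap between the extreme library and its nearest neighbour with the whole range. With independent libraries, chance alone places a library apart in about 1 of 20 groups. The 8 libraries come from 3 mice, so this rate is not assured here. Among the 9 genes, 2 had a library apart by this test. Cd74 stood at 1.87 FPKM in library 1 of mouse 2, with a gap of 0.810 of the range, and that library had the fewest bases on transcripts (1.31 gigabases). C3 stood at 0.403 FPKM in library 1 of mouse 3, with a gap of 0.567 of the range, and its lower confidence bound of 0.251 FPKM lay under the upper bound of 0.287 FPKM of the lowest library. The cause was not tested for either.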

How the results depend on the processing

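The number of the 9 genes that passed was 0 under 14 of the 15 alternatives and 1 (B2m) without library 1 of mouse 3, and leaving out each library gave 0 to 1. For all genes the count was 5646 in TPM, 2634 without the length trend and 126 to 3873 over the libraries left out, the lowest without library 2 of mouse 3. It was 1909, 1785 and 1671 without libraries 1, 2 and 3 of mouse 1. The 16 genes of the pathway lists became 7 without the length trend and 0 to 19 over the libraries left out, with 10 and 9 without libraries 2 and 3 of mouse 1. In TPM the differences of mouse 3 were -0.036 for B2m, -0.15 for H2-K1, -0.095 for H2-D1, -0.17 for H2-Aa, -0.0098 for H2-Ab1, -0.070 for Cd74 and -0.17 for C4b. Without the length trend they were -0.27 for B2m, -0.071 for H2-K1, -0.38 for H2-Aa, -0.17 for H2-Ab1, -0.18 for Cd74 and -0.023 for Psme1. Over the libraries left out they ran from -0.11 to 0.36 for H2-K1, from -0.18 to 0.31 for C4b and from -0.0099 to 0.070 for H2-Aa, with the negative value without library 1 of mouse 3 for H2-K1 and C4b and without library 3 of mouse 2 for H2-Aa. H2-Eb1 fell below the minimum without library 1 or 2 of mouse 1, library 3 of mouse 2 or library 1 of mouse 3. C3 reached a test with the lower minimums, with limma adjusted p-values of 0.702 and 0.644. The heavy chain to B2m ratio was 0.398 as a ratio of library medians, and the ratio of Cd74 to class II was 2.57 with medians, 1.72 with the highest transcript and 2.22 to 2.50 over the libraries left out. The ratio of C4b to C3 stayed at 15.1 to 16.4 over the libraries left out. The cause of these changes was not tested.

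Libraries with the same number were compared as possible pairs. The correlations of their deviations from the mouse means were 0.0028 to 0.107, and those of libraries with different numbers were -0.135 to 0.0645. Deviations within a mouse sum to 0, so these values cannot decide whether the numbers mark pairs. A fit with the number as a replicate block gave 2995 genes and 0 of the 9. Of those genes 2035 were higher and 960 lower in mouse 3, against 1835 and 1475 without the block. For H2-Eb1, of 1669 bases, a median of 1.01 FPKM rests on the equivalent of about 18 fragments. For C3, of 5139 bases, a median of 0.241 FPKM rests on 16.5, as a longer transcript gives more fragments at the same FPKM. Such low numbers limit what can be seen of class II chains and C3.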
